A study of Rattus norvegicus with 120 samples.

Results

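The nuclear-encoded subunits of respiratory complexes II to V were followed through kidney and heart of ZSF1 rats. Members were chosen by deposited gene symbol, as the genes Sdha to Sdhd and those whose symbol starts with Uqcr, with Cox followed by a digit of 4 to 8, or with Atp5, without pseudogene names. This gave 44 of 30560 gene entries, 4 of complex II, 8 of complex III, 15 of complex IV and 17 of complex V, under 41 symbols. Atp5mc1, Atp5mk and Uqcrb each had a second entry at or near 0. Cox7a2, Cox8a, Cox8b, Uqcr11 and Atp5f1e were not found by symbol and are not analysed here, nor is Atp5f1c.

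All rats were 30 weeks old and of the ZSF1 strain, a hybrid used as a model of obesity with diabetes, kidney disease and heart disease. ZSF1 Obese rats lack a working leptin receptor and ZSF1 Lean rats do not, and all rats received chow with or without compound. Study A held ZSF1 Obese rats given BT2, ZSF1 Obese rats given vehicle and ZSF1 Lean rats given vehicle. Study B held ZSF1 Obese rats given BT2 plus empagliflozin, empagliflozin or vehicle. BT2 inhibits the kinase that switches off breakdown of branched-chain amino acids, and empagliflozin inhibits the glucose transporter SGLT2 of the proximal tubule. There were 12 groups, 6 per organ, with 10 libraries in each, and the series text gives 10 rats per condition. No dose is named in the labels. The labels call the renal tissue kidney only, while the series text mentions both whole kidney and kidney cortex.

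Complex II oxidizes succinate and hands the electrons to ubiquinone. Complex III passes them to cytochrome c, complex IV passes them from cytochrome c to oxygen, and complexes III and IV pump protons while they do so. Complex V, the ATP synthase, lets the protons flow back and makes ATP. Heart muscle and the proximal tubule of the kidney both depend on this oxidation, and several complex IV subunits exist as an isoform typical of heart and skeletal muscle beside one found more widely.

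Libraries held a median of 12.15 M counts in heart and 10.05 M in kidney (M, 1000000 counts). Kidney BT2 replicate 2 and kidney study B vehicle replicate 8, with 0.0228 M and 0.776 M, are left out of levels but not of tests. Levels are counts per 1000000 counts of the library (CPM), and members took 1.96% to 3.31% of all counts in heart libraries and 1.06% to 2.00% in the kidney libraries kept for levels. By group medians, heart markers and kidney markers stood where the labels put them. The glucose transporter gene Slc5a2 had a median of 0 CPM in lean hearts and 309.5 CPM in lean kidneys. The myosin gene Myh6 had 10000 CPM in lean hearts and 1.49 CPM in lean kidneys. The thick limb gene Umod had a median of 0.37 CPM in lean hearts but a highest value of 60.9 CPM. Hearts were not screened for kidney transcripts, so the library with that value stayed in the tests of lean hearts. A few libraries stood apart, by transcripts of a different tissue or, in heart, by a high level of an atrial gene. In the lean kidney of replicate 8 cardiac actin, Actc1, stood at 1684 times the kidney median, and kidney combination replicate 7 held it at 226 times. Skeletal muscle markers of that lean kidney summed to 25500 CPM, against a lean kidney median of 77.55 CPM. Kidney combination replicates 1, 4 and 5 held albumin, Alb, at 275 to 2349 times the median, and lean replicate 8 held it at 165 times. In heart, 9 libraries exceeded 5 times the median of the atrial gene Myl7, and BT2 replicate 4 and combination replicate 9 exceeded 100 times that of the skeletal myosin Myh4. The atrium is part of the heart, so high Myl7 does not mark a different organ. Replicates 1 to 5 of every group were on plate 1 and 6 to 10 on plate 2, and plate 2 libraries had the higher median for 29 of 38 members in heart and 30 of 34 in kidney. The ratio of these medians ran between 0.74 for Uqcrc2 and 1.94 for Atp5me in heart, with a median of 1.21, so plate was a term of every test.

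Promoters of 3 members are shown because their genes stand for the contrasts that follow: Cox6a2, the heart and muscle isoform of a complex IV subunit, Cox4i1, the common isoform of another, and Atp5po, a stalk subunit of complex V. Each runs over 250 bases before and 50 after the RefSeq start site of the GRCr8 build, 5′ to 3′ on the strand of the gene. Capitals mark a match on either strand to the 10-letter MEF2 motif of muscle genes in Cox6a2, to CCGGAAG, an ETS-family motif that GABPA binds, in Cox4i1, and to the palindromic 10-letter motif of NRF1 in Atp5po, and the capitals in Cox6a2 and Atp5po spell the motifs that were searched.
Cox6a2, chr1:192219667-192219966, minus strand: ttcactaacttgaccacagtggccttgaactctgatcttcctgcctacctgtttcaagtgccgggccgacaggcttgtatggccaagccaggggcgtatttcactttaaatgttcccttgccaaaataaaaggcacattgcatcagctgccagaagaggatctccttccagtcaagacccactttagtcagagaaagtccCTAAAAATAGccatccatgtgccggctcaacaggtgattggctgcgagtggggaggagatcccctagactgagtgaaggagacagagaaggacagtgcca
Cox4i1, chr19:65630133-65630432, plus strand: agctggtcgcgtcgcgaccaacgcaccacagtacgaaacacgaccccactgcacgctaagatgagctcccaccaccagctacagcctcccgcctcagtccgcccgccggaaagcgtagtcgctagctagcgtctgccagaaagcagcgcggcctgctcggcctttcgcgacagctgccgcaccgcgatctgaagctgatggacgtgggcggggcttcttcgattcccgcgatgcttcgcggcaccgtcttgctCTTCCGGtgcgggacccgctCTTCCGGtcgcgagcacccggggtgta
Atp5po, chr11:44657434-44657733, minus strand: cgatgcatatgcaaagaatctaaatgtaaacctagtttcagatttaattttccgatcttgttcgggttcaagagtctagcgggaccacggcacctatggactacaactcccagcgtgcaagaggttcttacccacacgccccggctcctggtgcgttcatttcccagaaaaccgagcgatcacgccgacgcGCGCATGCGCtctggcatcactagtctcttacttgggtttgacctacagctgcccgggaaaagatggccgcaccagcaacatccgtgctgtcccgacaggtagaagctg
Of the 41 symbols 36 had a promoter in this table. CCGGAAG stood in 12 of the 36 (33.3%), against 8.75% of all 33469 promoters in the table. The NRF1 motif stood in Atp5mc2, Atp5me and Atp5po, 8.33% of the 36, against 0.85% of all. Its looser form, which takes any base at the sixth letter and so includes the first, stood in 16.7% against 4.26%. The MEF2 motif, which was searched for after the Cox6a2 sequence had been read, stood in Cox6a2 alone of the 36, against 0.14% of all promoters. A match describes letters in this window and is not evidence that a factor binds there.

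Lean hearts against lean kidneys showed how the organs differ before any treatment. Of 39 members that passed the filter on low counts, 38 were higher and 1 was lower in heart at an adjusted p under 0.05 (edgeR quasi-likelihood test, Benjamini-Hochberg over all genes), where 81.0% of all genes differed, 39.9% higher and 41.1% lower. The median log2 fold change of the members was 1.73, against -0.01 over all genes. It was 1.10 for complex II, 2.08 for complex III, 1.89 for complex IV and 1.62 for complex V. The 39 complex I subunits tested, chosen by symbol and with Ndufa4 among them, were all called higher with a median of 1.87. The 70 mitochondrial ribosomal proteins had a median of 0.92 with 64 higher and 2 lower. Libraries of the organs did not overlap for 30 of the 39 members, and neither did they for 45.0% of all genes tested, 18.8% with heart higher and 26.3% with heart lower. Cox6a2, Cox7a1 and Cox4i2 are among the 38 and among the 30. They passed the filter through the heart libraries, so their part of both counts follows in part from the filter. CPM in this comparison was scaled over the 20 lean libraries of both organs, and so is not the CPM scaled within an organ that is given for the same rats further on.

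Core subunits of all 4 complexes were higher in lean hearts. Sdha, the flavoprotein of complex II, had 543, 1090.0 and 1210.0 CPM in lean hearts (lowest, median and highest), against 495, 533 and 596 CPM in lean kidneys, a log2 fold change of 0.89 ± 0.13 (SE, adjusted p = 3.89e-06). Uqcrc1, a core protein of complex III, had 854, 1209 and 1810.0 CPM in lean hearts, against 217, 228 and 469 CPM in lean kidneys, and its log2 fold change was 2.36 ± 0.15. The iron-sulfur protein of complex II, Sdhb, differed by 1.71 ± 0.12, the Rieske protein of complex III, Uqcrfs1, by 2.12 ± 0.13, and Uqcrb, a small complex III subunit, by 2.08 ± 0.12. In complex IV the common subunits Cox4i1, Cox5a and Cox5b differed by 1.99 ± 0.13, 2.16 ± 0.11 and 2.04 ± 0.13. The catalytic subunits of complex V, Atp5f1a and Atp5f1b, differed by 1.62 ± 0.13 and 1.73 ± 0.12. Atp5mc1 and Atp5mc3, which encode the c subunit of the rotor ring, differed by 2.45 ± 0.13 and 2.14 ± 0.09, while the third c-subunit gene, Atp5mc2, differed by 1.17 ± 0.09. Atp5if1, which encodes the inhibitor of ATP hydrolysis by complex V, differed least among those called higher, by 0.40 ± 0.11.

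The isoform genes of complex IV lay at the ends of the range. Cox6a2 had 768, 1259 and 2092 CPM in lean hearts, against 0.0885, 0.242 and 3.58 CPM in the 9 lean kidneys other than replicate 8, which held 298 CPM. Its log2 fold change was 7.25 ± 1.56 with all libraries (adjusted p = 2.56e-04) and 10.97 ± 0.67 without replicate 8. Cox6a1, the widely expressed counterpart, was the member called lower: it had 98.8, 122 and 168 CPM in lean hearts, against 185, 203 and 236 CPM in lean kidneys, a log2 fold change of -0.66 ± 0.09 (adjusted p = 1.21e-06). Cox7a1, another muscle isoform, had 27.3, 39.5 and 75.9 CPM in lean hearts, against 0.0885, 0.537 and 0.735 CPM in those 9 lean kidneys and 8.99 CPM in replicate 8. Cox4i2, an isoform known from lung and from oxygen-dependent regulation, had 10.2, 13.4 and 20.5 CPM in lean hearts, against 0.162, 0.747 and 1.73 CPM in lean kidneys. Cox6a2, Cox7a1 and Cox4i2 passed the filter through the heart libraries, so that they differ follows in part from the filter. The plot of lean organs gives these ranges for the members with a median of at least 1 CPM in an organ.

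**Figure D1:**
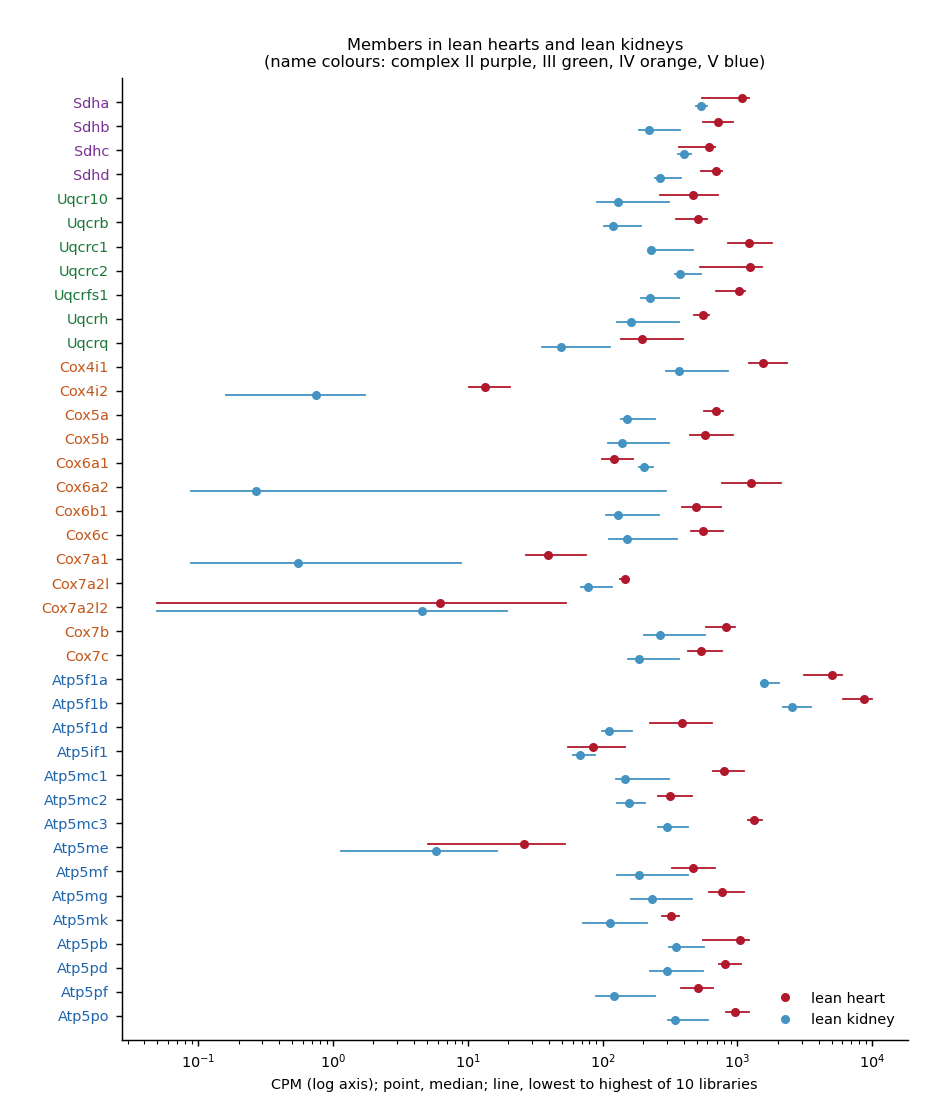
CPM of each member in lean hearts (red) and lean kidneys (blue) on a log axis, with the median as a point and the lowest to highest of 10 libraries as a line; libraries at 0 are drawn at 0.05 CPM. Most heart medians lie above the kidney medians, Cox6a1 lies below, and the long kidney line of Cox6a2 is replicate 8 at 298 CPM.

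Across the 6 groups of an organ, the summed CPM of all members was compared by group, and such sums weigh long and abundant transcripts most. Group medians were 24050 to 27320 CPM in heart and 11970 to 15920 CPM in kidney. In kidney, lean rats had the highest median of complexes II, III and V. Study A kidney sums for complex II had a median of 1604 CPM in BT2 rats, 1651 CPM in obese vehicle rats and 2040.0 CPM in lean rats. In study B they had 1508 CPM under the combination, 1316 CPM under empagliflozin and 1391 CPM under vehicle, and studies were not compared by a test. Sums of complex IV differed between the plates. Plate 2 libraries had a median of 5396 CPM in heart, against 4148 CPM on plate 1, and 2542 CPM in kidney, against 2096 CPM.

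**Figure D2:**
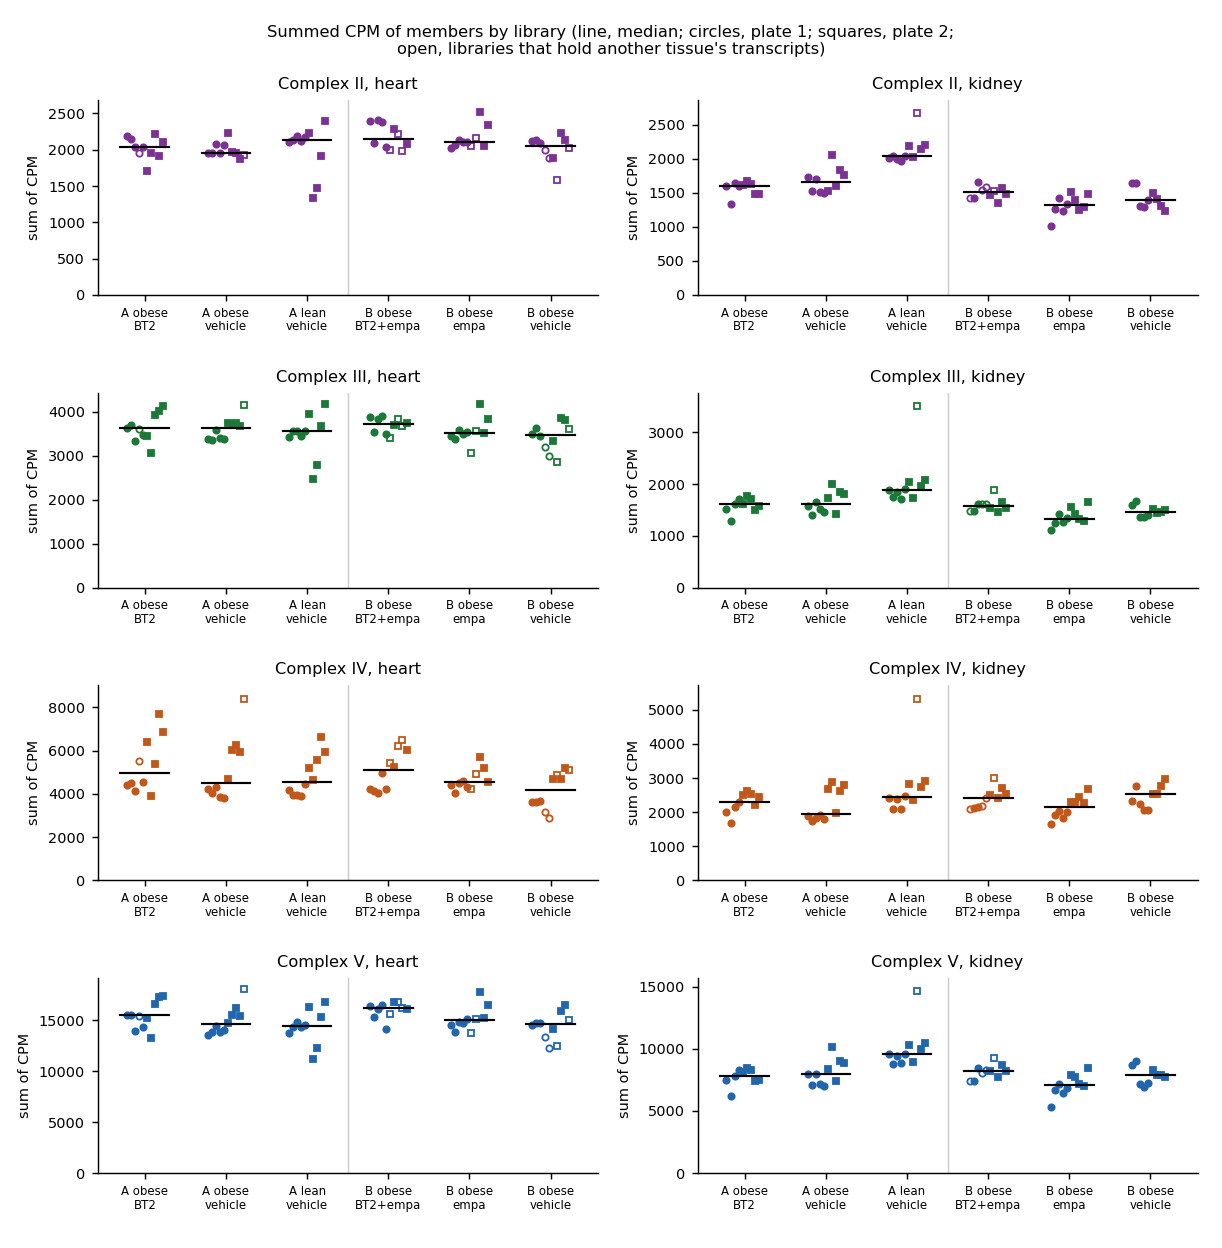
Sum of CPM over the members of a complex, for each library of 12 groups, with heart on the left, kidney on the right and the median as a line. Circles are plate 1 and squares are plate 2. Open symbols are libraries that stand apart, by another tissue's transcripts or, in heart, by a high level of atrial Myl7. Kidney lean replicate 8 lies above every other kidney library, at 5314 CPM for complex IV and 14620 CPM for complex V, and for complex IV the median of the squares lies above that of the circles in all 12 groups.

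Among libraries of a group, the coefficient of variation of members with at least 50 CPM had a median between 10.9% and 23.8%. Uqcrq, a small subunit of complex III, varied most in 8 of the 12 groups, by up to 54.4% in kidneys of obese vehicle rats. Cox7a2l, which is known to join complexes III and IV into supercomplexes, varied least in 6 groups, by 4.08% to 6.74%.

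Obese against lean kidneys, both on vehicle, differed in members of all 4 complexes. Of 36 tested, 21 fell and none rose, where 32.0% of all genes were called, 16.9% higher and 15.2% lower. The median log2 fold change was -0.30, against -0.02 over all genes, and 34 of the 36 were below 0. All 4 members of complex II fell, 3 of 7 of complex III, 4 of 10 of complex IV and 10 of 15 of complex V, each by 14.0% to 25.7%. Fewer cells of a type and less RNA per cell cannot be told apart in these bulk samples.

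In complex II every member fell by a like amount. Sdha had 520.1, 621 and 752 CPM in obese kidneys, against 729, 778 and 884 CPM in lean kidneys, a log2 fold change of -0.35 ± 0.06 (edgeR adjusted p = 1.23e-04). All 10 obese kidneys lay below the lean median, though the groups overlapped at the edge. Sdhd, which anchors the complex in the membrane, had 282, 319 and 375 CPM in obese kidneys, against 357, 394 and 563 CPM in lean kidneys. Sdhd and its partner Sdhc fell by 0.36 ± 0.07 and 0.34 ± 0.07 on the log2 scale, and Sdhb, the iron-sulfur protein, by 0.31 ± 0.11. In complex III the Rieske protein Uqcrfs1 fell by 0.37 ± 0.10, with 10 of 10 obese kidneys below the lean median, and the core proteins Uqcrc1 and Uqcrc2 by 0.32 ± 0.12 and 0.33 ± 0.10.

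Atp5po, of the stalk that holds the catalytic head of complex V in place, fell most of all members called. It had 324, 354 and 547 CPM in obese kidneys, against 443, 511 and 894 CPM in lean kidneys, with a log2 fold change of -0.43 ± 0.10 (adjusted p = 0.00215). One obese kidney lay above the lean median. Atp5f1a had 1655, 1875 and 2259 CPM in obese kidneys, against 2219, 2305 and 3009 CPM in lean kidneys, and all 10 obese kidneys lay below the lean median. The catalytic subunits Atp5f1a and Atp5f1b fell by 0.30 ± 0.07 and 0.30 ± 0.08, and the stalk genes Atp5pd and Atp5pb by 0.41 ± 0.12 and 0.34 ± 0.09. Atp5if1 had a log2 fold change of -0.05 ± 0.08 (adjusted p = 0.637). In complex IV, Cox4i1, Cox6c, Cox7c and Cox6b1 fell, by 0.25 to 0.38. Cox5a and Cox5b, which lie on the matrix side of the enzyme, had -0.21 ± 0.10 and -0.26 ± 0.12 and were not called (adjusted p = 0.0978 and 0.099). Cox6a1 and Cox4i2 had -0.19 ± 0.09 and 0.07 ± 0.34 and were not called, and Cox6a2 and Cox7a1 did not pass the filter here.

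Without lean replicate 8, whose sums lay highest, 18 of 37 members fell, with a median log2 fold change of -0.22, and all 18 were among the 21. The share of all genes that fell in this fit is not given here, so the count is not read against it. Cox6b1, Sdhb and Atp5mf were the members that lost the call, so that 3 of 4 in complex II were then called. On plate 1 alone 22 of 38 fell (median -0.27), 16 of them among the 21, where 13.5% of all genes fell. On plate 2 alone, which holds replicate 8, edgeR called none of 37 (median -0.33), with 10 at an unadjusted p under 0.05, where 1.47% of all genes fell. The authors' deposited table has 22 members lower and none higher in this comparison, where 34.2% of all genes were called in either direction.

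Lists of related genes are read against the 15.2% of all genes that fell and the 16.9% that rose. Among 39 complex I subunits 24 fell and none rose, with a median of -0.34. Among 70 mitochondrial ribosomal proteins 14 fell and none rose, with a median of -0.16, which is a share near that of all genes. Cycs, the cytochrome c that carries electrons between complexes III and IV, fell by 0.41 ± 0.11, Ndufa4, a subunit now placed in complex IV, by 0.34 ± 0.08, and the ADP/ATP carrier Slc25a5 by 0.26 ± 0.08. By its symbol Ndufa4 is also counted in the complex I list, here and in the other comparisons. Of 34 assembly factors of these complexes 10 fell, and 1, Fastkd1, a mitochondrial RNA-binding protein, rose by 0.29 ± 0.06. The share called in either direction was close to the 32.0% of all genes, but it lay mostly on the side of a fall. Taco1, which activates translation of a mitochondrial complex IV subunit, fell most of them, by 0.44 ± 0.08. Of 13 regulators of mitochondrial biogenesis 5 fell, Ppargc1b by 0.66 ± 0.15 and Esrrg by 0.40 ± 0.09 among them, and Pprc1 rose by 0.47 ± 0.08.

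Markers of several cell types changed in the same samples. The summed CPM of 12 proximal tubule markers had 8289, 10650 and 12530 CPM in obese kidneys, against 8888, 17290 and 18870 CPM in lean kidneys, with 9 of the 12 lower and none higher. Lean replicate 8 was the lean kidney at 8888 CPM. Immune markers summed to 145, 213 and 279 CPM in obese kidneys, against 81.2, 85.5 and 138 CPM in lean kidneys, with 8 of 8 higher. Of 6 intercalated cell markers 5 fell, with sums of 323, 422 and 588 CPM in obese kidneys, against 315, 635 and 720.3 CPM in lean kidneys. Of 7 thick limb and distal tubule markers 4 fell and 1 rose, with sums of 4629, 5838 and 6996 CPM in obese kidneys, against 3956, 8121 and 8974 CPM in lean kidneys. Endothelial markers summed to 257, 353 and 381 CPM in obese kidneys, against 399, 439 and 471 CPM in lean kidneys, with 4 of 6 lower and no overlap of the sums. Fibroblast markers summed to 349, 666 and 839 CPM in obese kidneys, against 329, 371 and 772 CPM in lean kidneys, with 2 of 6 higher. None of these 12, 8, 6, 7, 6 and 6 genes had a group median under 0.5 CPM. The 4 principal cell markers summed to 214, 309 and 485 CPM in obese kidneys, against 175.5, 305 and 372 CPM in lean kidneys. The part of cell composition in the change of the members was not tested.

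**Figure D3:**
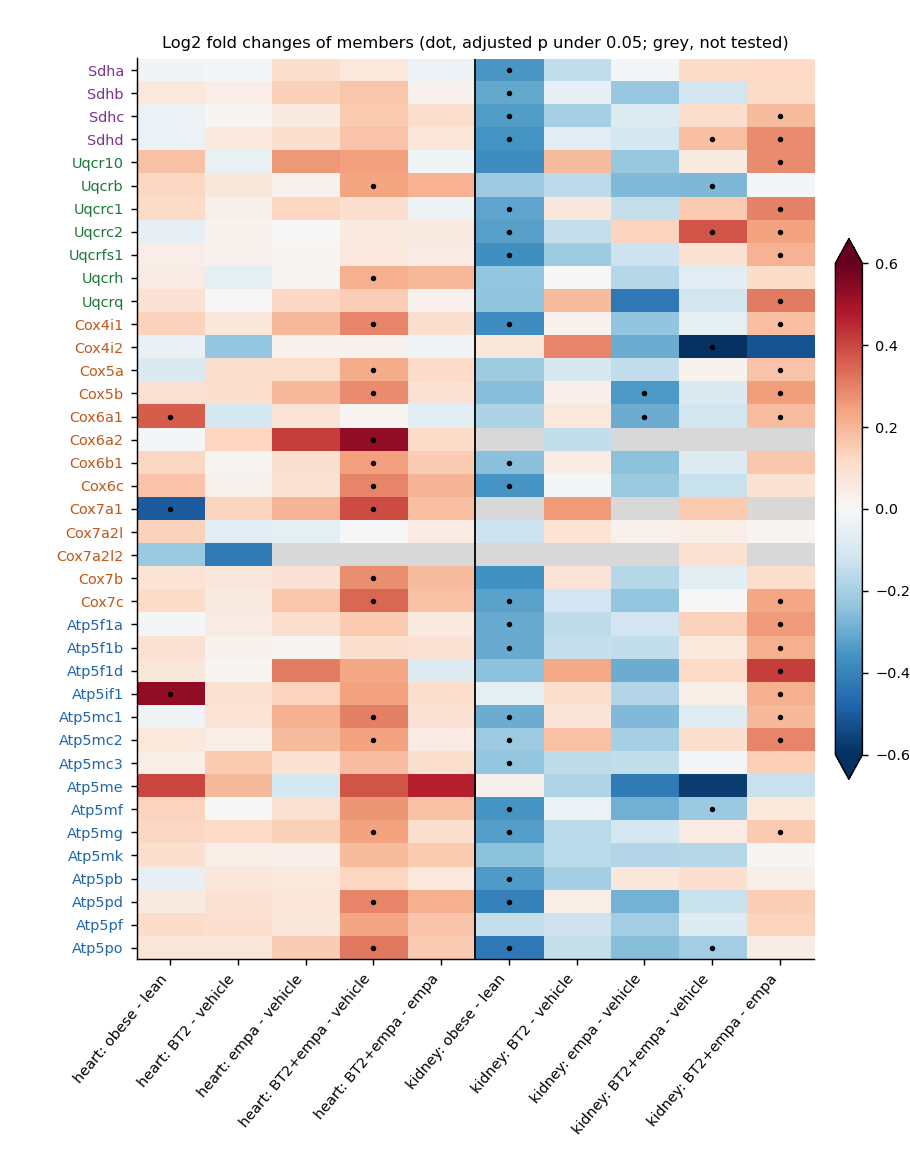
Log2 fold change of each tested member (rows) in 5 comparisons of heart and 5 of kidney (columns), tested minus compared group, with red for higher and blue for lower; a dot marks an adjusted p under 0.05 and grey was not tested. The column of obese minus lean kidneys is mostly blue with 21 dots, and the column of combination minus vehicle in heart is mostly red with 16 dots.

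BT2 alone moved no member past the threshold in either organ. In kidneys of obese rats given BT2, against obese vehicle, 0 of 38 members were called with edgeR where 5.66% of all genes were (2.26% higher and 3.40% lower), 3 had an unadjusted p under 0.05, and DESeq2 called 1. The median log2 fold change was -0.04. Uqcrfs1 had 194, 223 and 271 CPM in BT2 kidneys, against 231, 248 and 313 CPM in vehicle kidneys, with -0.21 ± 0.08 (adjusted p = 0.108). Sdha lay below the vehicle median in 9 of 9 BT2 kidneys, at -0.15 ± 0.09, and Atp5if1 above it in 9 of 9, at 0.10 ± 0.09. Atp5f1a and Atp5f1b had -0.15 ± 0.09 and -0.14 ± 0.14, and Uqcrc1, Cox4i1 and Cox5b had 0.07 ± 0.08, 0.02 ± 0.12 and 0.03 ± 0.10. Cycs, which is no member, fell by 0.66 ± 0.14 (adjusted p = 0.00796). In heart 0 of 39 were called with edgeR and with DESeq2, where 0.0558% of all genes were (0.0239% higher and 0.0319% lower), none had an unadjusted p under 0.05, and the median was 0.04. Of the core and isoform subunits named above, Cox4i2 was lowest there at -0.23 ± 0.16 and Cox7a1 highest at 0.13 ± 0.15.

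Empagliflozin against vehicle in kidney lowered a pair of complex IV subunits. Of 36 members tested 2 fell, Cox5b and Cox6a1, where 1.05% of all genes were called, 0.469% higher and 0.583% lower. Cox5b had 150, 189 and 264 CPM in empagliflozin kidneys, against 181, 239 and 329 CPM in vehicle kidneys, a log2 fold change of -0.34 ± 0.07 (adjusted p = 0.0276). Cox6a1 had 224, 277 and 352 CPM, against 285, 338 and 437 CPM in vehicle kidneys, with -0.30 ± 0.06 (adjusted p = 0.0255). For both, 9 of 10 empagliflozin kidneys lay below the vehicle median and the groups overlapped. Cox4i1 and Sdhb had -0.24 ± 0.07 and -0.23 ± 0.07 (adjusted p = 0.0847 and 0.0937), and 10 of 10 empagliflozin kidneys lay below the vehicle median for Sdhb. Sdha had -0.01 ± 0.08, Uqcrc1 -0.15 ± 0.08, Atp5f1a -0.12 ± 0.08, Atp5f1b -0.15 ± 0.08 and Atp5if1 -0.18 ± 0.07, none of them called. The members' median was -0.20, with 33 of 36 below 0, against 0.01 over all genes. DESeq2 called 16 lower, for which the share of all genes is not given here, and the fit without the plate term called none. The authors' deposited table has 11 lower, where 4.12% of all genes were called in either direction. Complex I subunits had a median of -0.23 with 2 of 39 called lower. Proximal tubule markers summed to 5044, 6730 and 9608 CPM in empagliflozin kidneys, against 6159, 7476 and 9489 CPM in vehicle kidneys, with 3 of 12 lower and none higher. None of these 12 had a group median under 0.5 CPM, and their part in the result was not tested. No marker was called in the lists of thick limb and distal tubule, principal, intercalated, immune, fibroblast and endothelial cells.

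In heart, empagliflozin gave 0 of 38 called with edgeR, where 0.107% of all genes were (0.0822% higher and 0.0247% lower), with 9 higher at an unadjusted p under 0.05 and 1 higher by DESeq2. The median was 0.09. Cox6a2 had the highest log2 fold change of the members, 0.42 ± 0.11 (adjusted p = 0.174), with 575, 765 and 1110.0 CPM in empagliflozin hearts, against 360, 607 and 877 CPM in vehicle hearts. Cox4i1 and Cox5b had 0.20 ± 0.08 and 0.20 ± 0.09, Sdha 0.10 ± 0.08 and Atp5f1b 0.01 ± 0.07. On plate 1 alone 12 members were called higher and 1 lower, with a median of 0.24, where 5.43% of all genes were higher and 4.88% lower. On plate 2 alone edgeR called no member and 0 of all 12471 genes, and the members' median was -0.03.

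BT2 plus empagliflozin against vehicle moved few members in kidney, in both directions. Of 38 tested 2 rose and 4 fell, where 32.2% of all genes were called, 17.4% higher and 14.8% lower, and the members' count was a smaller share. The median was 0.00. Uqcrc2, a core protein of complex III, rose most: it had 255, 299 and 362 CPM in combination kidneys, against 149, 235 and 314 CPM in vehicle kidneys, a log2 fold change of 0.38 ± 0.09 (adjusted p = 0.00257). All 10 combination kidneys lay above the vehicle median. Sdhd rose by 0.18 ± 0.07 (adjusted p = 0.0417).

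Cox4i2 fell, to 1.02, 1.62 and 4.09 CPM in combination kidneys, against 1.39, 3.78 and 4.48 CPM in vehicle kidneys, by 0.82 ± 0.24 on the log2 scale (adjusted p = 0.0118). This gene lies close to the filter on low counts. Uqcrb, a small subunit of the same complex as Uqcrc2, fell by 0.27 ± 0.09 (adjusted p = 0.0177), with 10 of 10 combination kidneys below the vehicle median, and Atp5po and Atp5mf fell by 0.21 ± 0.07 and 0.22 ± 0.09. Uqcrb had 129, 141 and 180 CPM in combination kidneys, against 137, 181 and 222 CPM in vehicle kidneys, and the groups overlapped. The core subunits Sdha, Uqcrc1 and Atp5f1a had 0.11 ± 0.07, 0.16 ± 0.07 and 0.14 ± 0.07 and were not called. Cox4i1, Cox5a, Cox5b, Cox6a1 and Atp5if1 lay between -0.11 and 0.04. Without the libraries that stand apart, Uqcrc2, Uqcrb, Cox4i2 and Atp5po were still called, and Sdhd and Atp5mf were not. edgeR called no member on plate 1 alone, Uqcrc2 only on plate 2 alone, and 3 members with the replicate block. Shares of all genes in these fits are not given here. Among 13 biogenesis regulators 4 rose, led by Ppargc1b at 1.06 ± 0.19, with Ppargc1a at 0.51 ± 0.16 and Esrrg at 0.43 ± 0.12. Markers of some cell types moved in these kidneys as well. All 8 immune markers fell, with sums of 88.7, 108 and 131 CPM in combination kidneys, against 119, 185 and 252 CPM in vehicle kidneys. All 6 intercalated cell markers rose, and of 12 proximal tubule markers 4 rose and 6 fell. Thick limb and distal tubule markers had a median sum of 5319 CPM in combination kidneys, against 5473 CPM in vehicle kidneys. Endothelial markers had 271 against 267 CPM, principal cell markers 1086 against 882.5 CPM and fibroblast markers 261 against 401.5 CPM. The part of these markers in the change of the members was not tested.

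Set against empagliflozin alone, the combination raised 19 of 36 kidney members and lowered none, where 31.7% of all genes were called, 17.0% higher and 14.8% lower. The median was 0.17, against 0.01 over all genes. It shares the combination libraries with the comparison above and the empagliflozin libraries with the one before, so these are not independent. Called were 2 of 4 in complex II, 5 of 7 in complex III, 5 of 10 in complex IV and 7 of 15 in complex V. Atp5f1d, of the central stalk of complex V, rose most. It had 243, 287 and 377 CPM in combination kidneys, against 178, 222 and 292 CPM in empagliflozin kidneys, a log2 fold change of 0.42 ± 0.06 (adjusted p = 1.96e-05), with 10 of 10 combination kidneys above the empagliflozin median. Atp5mc2 rose by 0.29 ± 0.05, Uqcrc1 by 0.30 ± 0.08, Sdhd by 0.28 ± 0.06 and Uqcr10, a small complex III subunit, by 0.28 ± 0.07. Cox5b and Cox6a1 rose by 0.25 ± 0.06 and 0.19 ± 0.05.

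The catalytic subunit Atp5f1a had 1692, 1864 and 2175 CPM in combination kidneys, against 1184, 1492 and 1878 CPM in empagliflozin kidneys, and rose by 0.26 ± 0.07. Atp5f1b, Atp5if1, Uqcrfs1, Cox4i1 and Cox5a rose by 0.17 to 0.22. Atp5mg, a small membrane subunit of complex V, rose least of those called, by 0.16 ± 0.06. Sdha and Sdhb had 0.12 ± 0.06 and 0.12 ± 0.06 and were not called, nor was Cox4i2 at -0.52 ± 0.24 (adjusted p = 0.107).

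Without combination replicates 1, 4, 5 and 7, which stand apart, 6 combination libraries were left. Then 3 of 38 members rose (Atp5f1d, Atp5mc2 and Sdhd) and Cox4i2 fell by 0.79 ± 0.25, where 10.8% of all genes rose and 9.80% fell. The median was 0.12, with 33 of 38 above 0. Without any one of the 4, 15 to 18 rose. On plate 1 alone 13 rose (median 0.20), where 14.3% of all genes did, and on plate 2 alone 1 (median 0.13), where 3.89% did. Proximal tubule markers summed to 8021, 9109 and 11880 CPM in combination kidneys, against 5044, 6730 and 9608 CPM in empagliflozin kidneys, with 4 of 12 higher and 4 lower. Intercalated cell markers summed to 782, 923 and 1202 CPM, against 339, 521 and 962 CPM in empagliflozin kidneys, with 2 of 6 higher. Immune markers summed to 88.7, 108 and 131 CPM, against 127, 193 and 439 CPM in empagliflozin kidneys, with 8 of 8 lower. None of these 12, 6 and 8 genes had a group median under 0.5 CPM, and their part in the result was not tested.

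Obese against lean hearts differed in few members. Of 39 tested, 2 rose and 1 fell, where 5.36% of all genes were called, 3.32% higher and 2.03% lower, and the median was 0.07. The members' count was a share near that of all genes, so it is not read as a result about the members as a set. Atp5if1, the inhibitor of ATP hydrolysis, had 50.2, 75.2 and 174 CPM in obese hearts, against 37.9, 57.1 and 99.5 CPM in lean hearts, a log2 fold change of 0.53 ± 0.12 (adjusted p = 0.0113). Of the obese hearts 8 lay above the lean median. Cox6a1 rose by 0.36 ± 0.09 (adjusted p = 0.0223), with 75.4, 99.9 and 189.5 CPM in obese hearts, against 67.7, 81.6 and 113 CPM in lean hearts, and 9 of 10 obese hearts lay above the lean median.

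Cox7a1 fell by 0.50 ± 0.13 on the log2 scale (adjusted p = 0.0284), with 9.71, 21.8 and 38.7 CPM in obese hearts, against 18.6, 26.5 and 51.5 CPM in lean hearts. Of the obese hearts 6 lay below the lean median. On plate 1 alone the log2 fold change was -0.61 and on plate 2 alone -0.41 for Cox7a1, 0.54 and 0.50 for Atp5if1, and 0.29 and 0.43 for Cox6a1. edgeR called none of these genes on plate 2 alone (adjusted p = 0.675, 0.564 and 0.514). Cox6a1 was not called on plate 1 alone either (adjusted p = 0.0669), nor with the replicate block (adjusted p = 0.0508). Without obese replicate 10, which was highest for all 3, the values were -0.56, 0.44 and 0.29, and all 3 were called. Without the plate term none was. Cox6a2, the isoform partner of Cox6a1, had a log2 fold change of -0.01 ± 0.12. Sdha, Uqcrc1, Cox4i1, Atp5f1a and Atp5f1b had -0.02 ± 0.13, 0.11 ± 0.11, 0.14 ± 0.09, -0.01 ± 0.10 and 0.09 ± 0.08, none of them called. The carrier Slc25a5 rose by 0.36 ± 0.06. Of 4 atrial markers 1 rose, and their sum had 487, 1045 and 3045 CPM in obese hearts, against 346, 496 and 1256 CPM in lean hearts; their part was not tested.

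**Figure D4:**
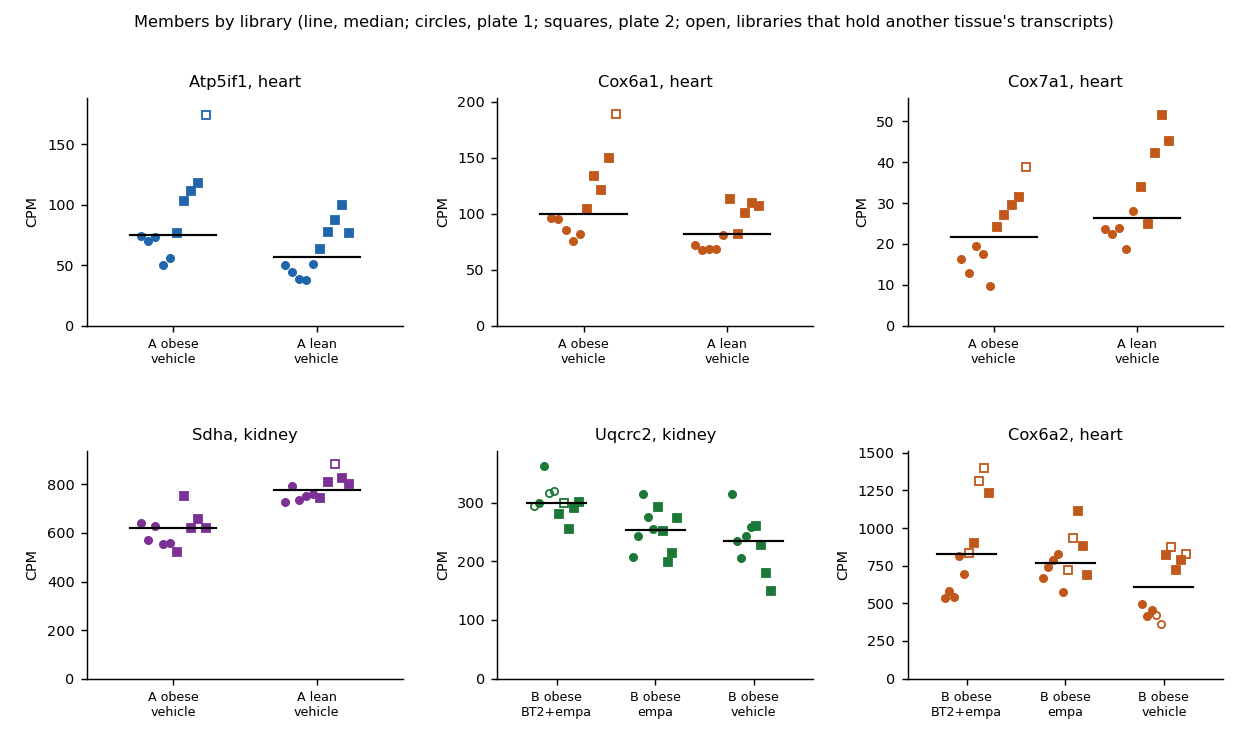
CPM of 6 members by library, with the median of a group as a line, circles for plate 1 and squares for plate 2. Open symbols are libraries that stand apart, by another tissue's transcripts or, in heart, by a high level of atrial Myl7. By the medians of each plate, Atp5if1 and Cox6a1 are higher and Cox7a1 is lower in obese than in lean hearts, the kidney panel of Sdha shows 10 obese kidneys below the lean median of 778 CPM, and the 5 highest Cox6a2 values under the combination in heart, up to 1402 CPM, are all on plate 2.

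BT2 plus empagliflozin against vehicle in heart raised 16 of 38 members and lowered none, where 5.13% of all genes were called, 3.58% higher and 1.55% lower. The median log2 fold change was 0.23, against 0.00 over all genes, and 37 of 38 were above 0. None of 4 was called in complex II, 2 of 7 in complex III, 9 of 12 in complex IV and 5 of 15 in complex V. Cox6a2 rose most, with 538, 826 and 1402 CPM in combination hearts, against 360, 607 and 877 CPM in vehicle hearts, a log2 fold change of 0.53 ± 0.10 (adjusted p = 0.00166). Of the combination hearts 7 lay above the vehicle median, and the 5 on plate 2 were the highest.

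Cox7a1 rose by 0.39 ± 0.11 and Cox7c, a small complex IV subunit, by 0.34 ± 0.07. Atp5po had 573, 670.1 and 799 CPM in combination hearts, against 399, 553 and 671 CPM in vehicle hearts, and rose by 0.32 ± 0.06 (adjusted p = 0.00166), with 10 of 10 above the vehicle median. Atp5pd had the smallest adjusted p, 9.14e-04, at 0.29 ± 0.05, with 529, 623 and 703 CPM in combination hearts, against 404, 506 and 640.3 CPM in vehicle hearts.

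Cox7b, another small complex IV subunit, rose by 0.28 ± 0.05, with 10 of 10 combination hearts above the vehicle median. Cox4i1, Cox5a and Cox5b rose by 0.29 ± 0.07, 0.22 ± 0.06 and 0.28 ± 0.08. In complex III, Uqcrb and Uqcrh rose by 0.24 ± 0.06 and 0.21 ± 0.06, and Uqcrh, a hinge protein next to cytochrome c1, rose least of the 16. Sdha, Uqcrc1, Uqcrfs1 and Atp5if1 had 0.06 ± 0.07, 0.10 ± 0.07, 0.06 ± 0.06 and 0.24 ± 0.09 and were not called. Cox6a1 had 0.01 ± 0.07, and the catalytic subunits Atp5f1a and Atp5f1b had 0.16 ± 0.06 and 0.10 ± 0.06 and were not called. The ADP/ATP carrier of heart, Slc25a4, rose by 0.34 ± 0.05 and Cyc1, the cytochrome of complex III, by 0.22 ± 0.06. Of 39 complex I subunits 12 rose, with a median of 0.22.

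Without vehicle replicates 4, 5, 7 and 10 and combination replicates 6, 8 and 9, which stand apart, 7 combination and 6 vehicle libraries were left. Combination replicate 9 stands apart by skeletal Myh4 and the others by atrial Myl7, a gene of the heart itself. edgeR then called none of 39, where 0.615% of all genes rose, with a median of 0.14 and 13 higher at an unadjusted p under 0.05. Cox6a2 then had 0.47 (adjusted p = 0.0507). Leaving out vehicle replicate 4 or combination replicate 8 left 9 called, and leaving out vehicle replicate 5 or combination replicate 9 left 10. The fit without plate called 1, and on plate 1 and plate 2 alone none was called (24 and 12 higher at an unadjusted p under 0.05), with medians of 0.29 and 0.14. For these fits and those that leave out 1 library, the share of all genes called is not given here, so their counts are not read against it. The authors' deposited table has 18 higher and none lower, where 8.05% of all genes were called in either direction. Cardiomyocyte markers summed to 47350, 56720 and 63350 CPM in combination hearts, against 41280, 45410 and 51160 CPM in vehicle hearts, with 5 of 8 higher. Atrial markers summed to 566, 1096 and 3481 CPM, against 318, 1414 and 12900 CPM in vehicle hearts, with none of 4 called. None of these 8 and 4 genes had a group median under 0.5 CPM, and their part in the result was not tested.

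**Figure D5:**
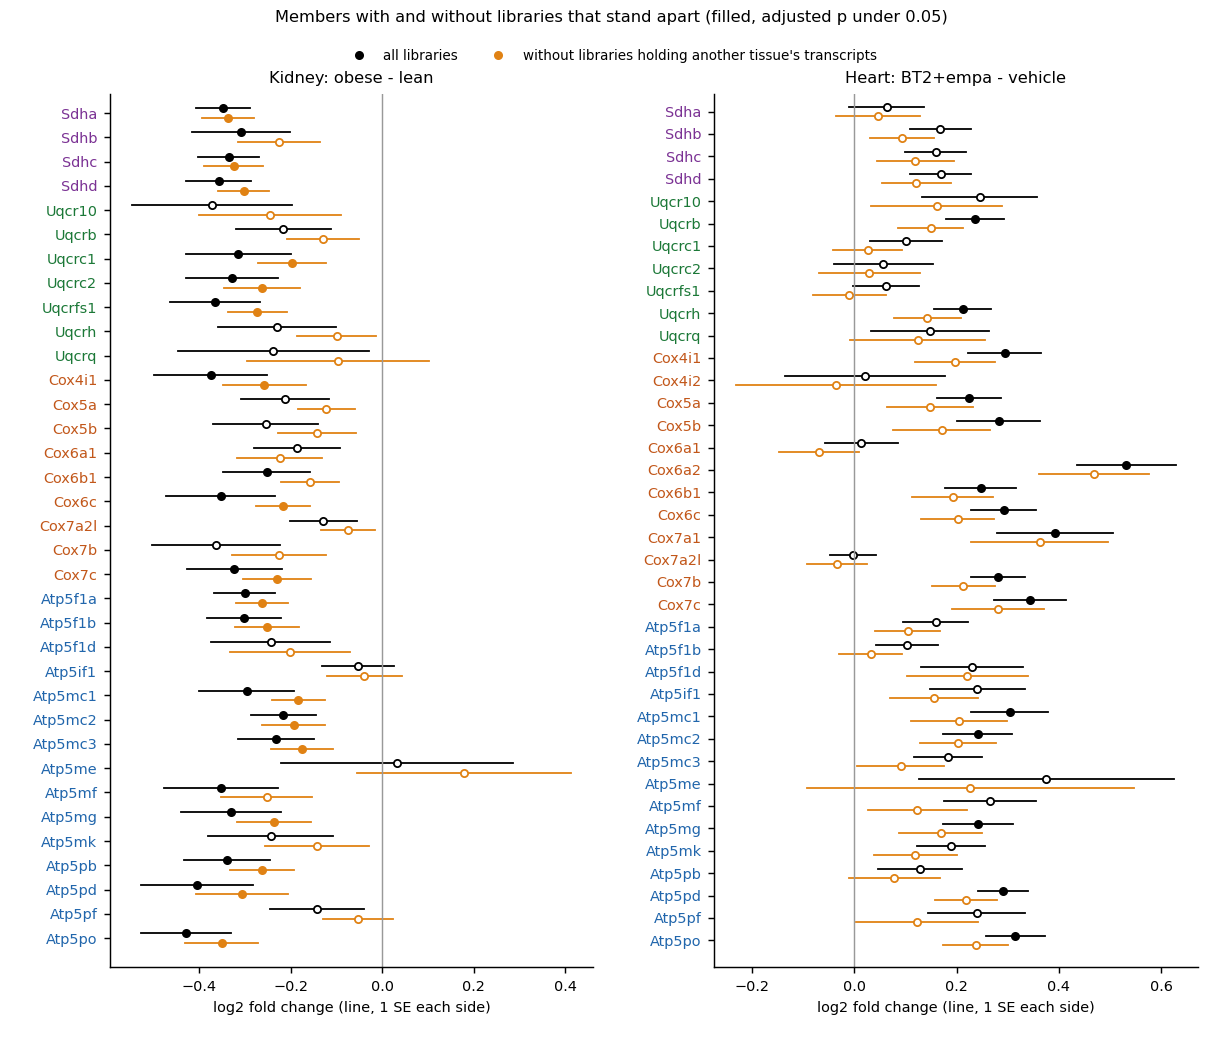
Log2 fold change of members, with 1 SE each side, for obese minus lean kidneys and for combination minus vehicle hearts. Black is with all libraries and orange is without libraries that stand apart, by another tissue's transcripts or, in heart, by a high level of atrial Myl7. Filled points passed an adjusted p of 0.05. In kidney 18 members stay filled without lean replicate 8, and in heart none does.

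Against empagliflozin alone, the combination gave 0 of 38 heart members called with edgeR, where 0.0249% of all genes were, with 10 higher at an unadjusted p under 0.05 and 4 higher by DESeq2. The median was 0.10. Cox6a2 and Cox7a1 had 0.12 ± 0.13 and 0.18 ± 0.13, Cox4i1 0.10 ± 0.08, Sdha -0.04 ± 0.08 and Atp5f1a 0.06 ± 0.06.

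Organs were compared by testing the difference of the effects, heart minus kidney. For obese against lean, 12 of 39 members differed, all toward heart, where 14.0% of all genes did, 6.41% in that direction and 7.64% in the other, and the median difference was 0.35. Atp5if1 differed by 0.59 ± 0.15 (adjusted p = 0.00735), Cox6a1 by 0.56 ± 0.14 (adjusted p = 0.00508) and Atp5po by 0.51 ± 0.14 (adjusted p = 0.011). Cox4i1, Uqcrfs1, Atp5f1b and Sdhd differed by 0.52 ± 0.16, 0.42 ± 0.13, 0.40 ± 0.13 and 0.33 ± 0.10. Cox7a2l differed least of those called, by 0.27 ± 0.09. Sdha and Atp5f1a, at 0.35 ± 0.15 and 0.30 ± 0.13, were not called. Without kidney lean replicate 8 and heart obese replicate 10, Atp5if1, Cox6a1 and Atp5po differed in this direction, and Cox7a1 in the other, by -1.10 ± 0.31 (adjusted p = 0.0106), against 0.51 ± 0.53 with all libraries. Cox7a1 had a median of 0.54 CPM in the 9 lean kidneys other than replicate 8, scaled over the lean libraries of both organs. It did not pass the filter in obese against lean kidneys with all libraries, so the kidney part of this difference rests on few counts.

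For the combination against vehicle, 15 of 39 differed toward heart, where 16.2% of all genes did, 8.30% in that direction and 7.91% in the other, with a median of 0.21. Atp5po differed by 0.53 ± 0.09 (adjusted p = 8.73e-05) and Uqcrb by 0.52 ± 0.11. Cox6c differed by 0.44 ± 0.11, Atp5pd by 0.43 ± 0.09, Cox5b by 0.38 ± 0.12, Cox4i1 by 0.36 ± 0.11 and Sdhb by 0.29 ± 0.09. Cox4i2 differed by 0.85 ± 0.28. Sdha, Uqcrc1, Uqcrfs1, Atp5f1a and Atp5f1b lay between -0.04 and 0.05. Without the libraries that stand apart 6 still differed: Atp5po, Atp5pd, Uqcrb, Cox6c, Cox7b and Cox4i2. Heart and kidney libraries of a condition carry the same replicate numbers, but no label used here says that a number is 1 rat, and these tests treat the libraries as separate. With each heart and kidney of one condition and number as a block, 6 of 39 members differed for obesity, where 3.60% of all genes did in that direction, Atp5if1, Cox6a1 and Atp5po among them, and 14 of 39 for the combination, where 6.39% did.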

How the data were processed

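Poly-A RNA of frozen tissue was made into stranded mRNA libraries, per the labels' protocols. STAR 2.7.3a, Salmon 1.5.2, DESeq2 1.34.0 and the build mRatBN7.2 are named in the submitters' processing notes, with no parameters. The authors deposited expected counts per gene for each run. The scripts read 163 of the columns, and 82 columns that could be tied to none of the samples stayed unused. Expected counts of the repeat runs of 43 libraries were added to the first run and rounded to whole numbers (6.61% of values were not whole). The authors also deposited scaled counts (unit signal) with log2 fold changes and adjusted p-values, per the file headers. All 156 scaled columns were proportional to the summed runs within 1%.

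edgeR 4.0.16 (R 4.3.3) was fitted to the 2 groups of each comparison, with TMM factors, filterByExpr, plate as a covariate and quasi-likelihood F tests. P-values were adjusted by Benjamini-Hochberg over all genes tested, with a threshold of 0.05. Standard errors were derived from the fold change and its F value. Organs were compared in 1 fit of both organs. Levels are CPM with the TMM factors of an organ's 60 libraries, or of the 20 lean libraries for lean heart against lean kidney, and CPM is not scaled for gene length. The scripts were tested on simulated data. Alternatives were DESeq2 1.42.0, its size factors, no filter, no plate term, each plate alone and a replicate block. Leaving out libraries that hold another tissue's transcripts, high atrial Myl7 in heart or under 1000000 counts was chosen after seeing the data. Where a count of members from an alternative fit stands without the share of all genes, it is not read against that share. Members, lists and named genes (those called with the smallest p, isoform pairs and core subunits) were chosen with earlier results of these data known. P-values of comparisons within an organ measure the spread between rats, and depth limits members near the filter such as Cox4i2 in kidney. Tests across organs, lean heart against lean kidney among them, treat libraries as separate, though both organs may come from the same rats.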

Additional observations from a re-analysis of the deposited data

Results flagged for a closer look

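Summed CPM of each complex was screened for a library far from the others of its group, and 8 of 48 sums had one. Chance flags about 1 in 20 of independent sums. The complexes were summed in the same libraries, so the count is not read against that. Kidney lean replicate 8 was the highest lean kidney in all 4 complexes, at 2672 CPM for complex II, 3500.0 CPM for complex III, 5314 CPM for complex IV and 14620 CPM for complex V. Its cardiomyocyte markers summed to 16630 CPM, against a lean kidney median of 23.57 CPM. Its skeletal muscle markers summed to 25500 CPM, against a lean kidney median of 77.55 CPM. For complex III, kidney combination replicate 7 was the highest of its group at 1887 CPM and heart obese vehicle replicate 10 of study A at 4154 CPM. Heart vehicle replicate 7 of study B was the lowest of its group for complex II at 1577 CPM, and kidney BT2 replicate 3 for complex V at 6182 CPM.

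The effect of obesity differed between heart and kidney for 12 of 39 members, and that of BT2 plus empagliflozin for 15 of 39, by the test of the difference itself. The effects were higher in heart for every one of these 12 and 15, where 14.0% and 16.2% of all genes differed in either direction. Without the libraries that stand apart 4 and 6 members differed, 6 and 14 with heart and kidney of one condition and number as a block, and 3 and 9 with the replicate number as a block within each organ.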

How the results depend on the processing

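Counts in this section stand without the share of all genes called in the same fit. They show how the count of members moved, and not how the members stood against all genes. The 38 higher and 1 lower members of lean heart against lean kidney stayed within 1.5 times of that count under every alternative. Leaving out plate as a term gave 11 called members for obese against lean kidneys, 0 for empagliflozin in kidney, 9 for combination against empagliflozin in kidney, 0 for obese against lean hearts and 1 for combination against vehicle in heart, and 4 and 4 for the organ differences of obesity and of the combination. Plate 1 alone gave 0 for empagliflozin and 0 for combination against vehicle in kidney, 13 for empagliflozin and 0 for combination against vehicle in heart, and 4 for the organ difference of the combination. Plate 2 alone gave 0 for obese against lean kidneys, 0 for empagliflozin, 1 for combination against vehicle and 1 for combination against empagliflozin in kidney, 0 for obese against lean and 0 for combination against vehicle in heart, and 0 and 0 for the organ differences. DESeq2 called 1 for BT2 and 16 for empagliflozin in kidney, 1 for empagliflozin and 4 for combination against empagliflozin in heart, and 21 for the organ difference of obesity. No filter on low counts gave 9 for combination against vehicle in heart and 6 for the organ difference of obesity.

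Without the libraries that stand apart, combination against empagliflozin in kidney had 4, combination against vehicle in heart 0, and the organ differences 4 and 6. Leaving out 1 such library gave 9 to 15 for combination against vehicle in heart, 15 to 19 for combination against empagliflozin in kidney, 5 to 8 for the organ difference of obesity and 13 to 16 for that of the combination. The organ difference of obesity for Cox7a1 turned to -1.10 without the libraries that stand apart, and ran from -1.04 without kidney lean replicate 8 to 0.47 without heart obese replicate 10. Its kidney part rests on few counts. The causes were not tested.

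Same-numbered libraries of compared groups showed little pairing: at most 6 of 10 pairs correlated above 0.1, and at most 3 of 10 libraries correlated best with their own number. The highest median correlation was 0.122, for empagliflozin against vehicle in heart. Compared groups of one organ hold different rats, so for them this check cannot show whether rats were paired. A replicate block gave 9 for obese against lean kidneys, 0 for empagliflozin and 3 for combination against vehicle in kidney, 7 for combination against vehicle in heart, and 3 and 9 for the organ differences. With the heart and kidney of one condition and number as a block, chosen after seeing the data, the organ differences had 6 and 14 members; across the 4 conditions, at most 3 of 10 such pairs correlated above 0.1. Of 202 results on named members, 194 kept their direction and side of the threshold with DESeq2, 201 with its size factors, 189 with no filter, 179 with the block, 170 without the libraries that stand apart, 167 without plate and 143 on plate 2, as did 161 of 200 on plate 1.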
